A study of Mus musculus and Homo sapiens with 34 samples.

Results

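A set of 7 epithelial surface genes was followed through every RNA sequencing library of the study: the membrane serine proteases Tmprss2, Tmprss4, Hpn, St14 and Prss8 and the Kunitz-type inhibitors Spint1 and Spint2 (upper case in human). These 7 genes, 5 proteases and 2 inhibitors, were picked by name out of 10528 gene symbols that all 7 count tables list, and each of the 7 tables lists all of them. They were picked with their changes against the matching vehicle already known, so those changes are given below as a description, with no p-value. The 34 libraries form 17 groups of 2 replicates. The 3154 cultures are mouse lung tumour organoids with p53frt, Rosa-FSF-CreERT2 and Hnf4aflox, in which 4-hydroxytamoxifen (4OHT) switches on the Cre recombinase that removes Hnf4a. They were given ethanol or 4OHT (2 mM per the labels) for 2 days and harvested 2 weeks later. In a second experiment 3154 organoids had ethanol or 4OHT and then vehicle or 3 nM MRTX1133, a small-molecule inhibitor, for 48 hours; the interval since 4OHT is not stated. The 1027B organoids and the 3311 cell line carry p53frt, Rosa-FSF-CreERT2, Foxa1flox and Foxa2flox, and their labels name no agent that deletes either Foxa gene. For 1027B the treatments lasted 48 hours and were vehicle, trametinib at 10 nM (which blocks the kinase MEK) or MRTX1133 at 20 nM. Trametinib was also given for 48 hours to 3311, at 50 nM, and at 20 nM to the human lung adenocarcinoma lines H358 and H1651, each beside its own vehicle group. H1651 carrying a lentiviral, doxycycline-inducible HNF4α construct was grown for 7 days with 1 µg/mL doxycycline or without it. The organoids were grown in L-WRN conditioned medium. Every comparison uses 1 culture or line whose groups all share its alleles. The labels do not say that replicates were separate cultures, so the spread between replicates may be technical. No culture without Hnf4aflox was given 4OHT, so an effect of 4OHT or of Cre itself was not tested. Deletion below stands for 4OHT against ethanol.

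Membrane serine proteases cut other proteins at the cell surface. Matriptase (St14) and prostasin (Prss8) activate each other in epithelia and process substrates that include the hepatocyte growth factor precursor, EpCAM and the epithelial sodium channel. Hepsin (Hpn), TMPRSS2 and TMPRSS4 are anchored in the membrane by their N-terminal end, as matriptase is, and TMPRSS2 is best known for priming viral entry proteins. Spint1 and Spint2 encode the hepatocyte growth factor activator inhibitors HAI-1 and HAI-2, membrane-bound Kunitz inhibitors that block matriptase, hepsin and prostasin.

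Libraries held from 19692517 to 45284286 counts. Expression is given as CPM, the counts of a gene divided by the library's total after TMM scaling within its table and expressed on a common scale, and a change was called when edgeR's adjusted p over all genes of the table was under 0.05. Hnf4a followed its labels. It stood at 315 and 427 CPM 2 weeks after ethanol against 53.5 and 68 after 4OHT, and at 221 and 230 CPM against 49.4 and 50.4 in the 48-hour experiment with vehicle. With MRTX1133 it stood at 179.7 and 184 CPM against 25.3 and 29.8. Doxycycline raised HNF4A in H1651 from 47.1 and 35.9 CPM to 94.3 and 96.8 CPM. Hnf4a was also called lower with both drugs in 1027B, from 446 and 471 CPM in vehicle to 254 and 200.4 CPM with trametinib (log2 change -1.01 ± 0.154) and 297.5 and 242 CPM with MRTX1133 (-0.76 ± 0.153), and with MRTX1133 after deletion in 3154 (-0.86 ± 0.125). It was not called with MRTX1133 in 3154 organoids with Hnf4a (-0.31 ± 0.122) or with trametinib in 3311 (-0.39 ± 0.224) and H1651 (-0.066 ± 0.330), and H358 held 0 counts of HNF4A in every library. In bulk RNA, fewer expressing cells and less RNA per cell cannot be told apart. The epithelial markers Epcam, Cdh1, Krt8, Krt18 and Krt19 summed to between 3601 and 10910 CPM in every library. Within H1651 the lists were uneven: KRT8 (2957 to 4645 CPM) and KRT18 (1352 to 2190 CPM) were high and EPCAM (0.993 to 3.81 CPM) and KRT19 (6.41 to 8.70 CPM) low, and of the fibroblast markers COL3A1 reached 241 to 449 CPM while COL1A2 and PDGFRA were under 1 CPM in every library.

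The inhibitors were the most abundant members per length of transcript in all 4 mouse tables. In vehicle-treated 1027B organoids, mean levels per kilobase of exon were 167 CPM for Spint2 and 121 CPM for Spint1. The proteases followed at 37.6 CPM per kilobase for Tmprss2, 34.5 for Prss8, 21.9 for St14, 17.1 for Tmprss4 and 1.55 for Hpn. The 3154 organoids with ethanol and vehicle gave 211 for Spint2, 177 for Spint1, 57.4 for Prss8, 37.3 for Tmprss2, 20.6 for St14, 6.93 for Tmprss4 and 0.205 for Hpn on the same scale. In these organoids the mean of Prss8 was above that of Tmprss2. The 3311 line had a different makeup: Spint2 was at 173 CPM per kilobase and Spint1 at 35.7, Tmprss2 was at 13.4, and Prss8 (0.94), St14 (0.235), Tmprss4 (0.15) and Hpn (0.0146) were each under 1. Lengths are unions of GENCODE M21 exons, and human genes were not compared with each other for want of lengths.

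**Figure D1:**
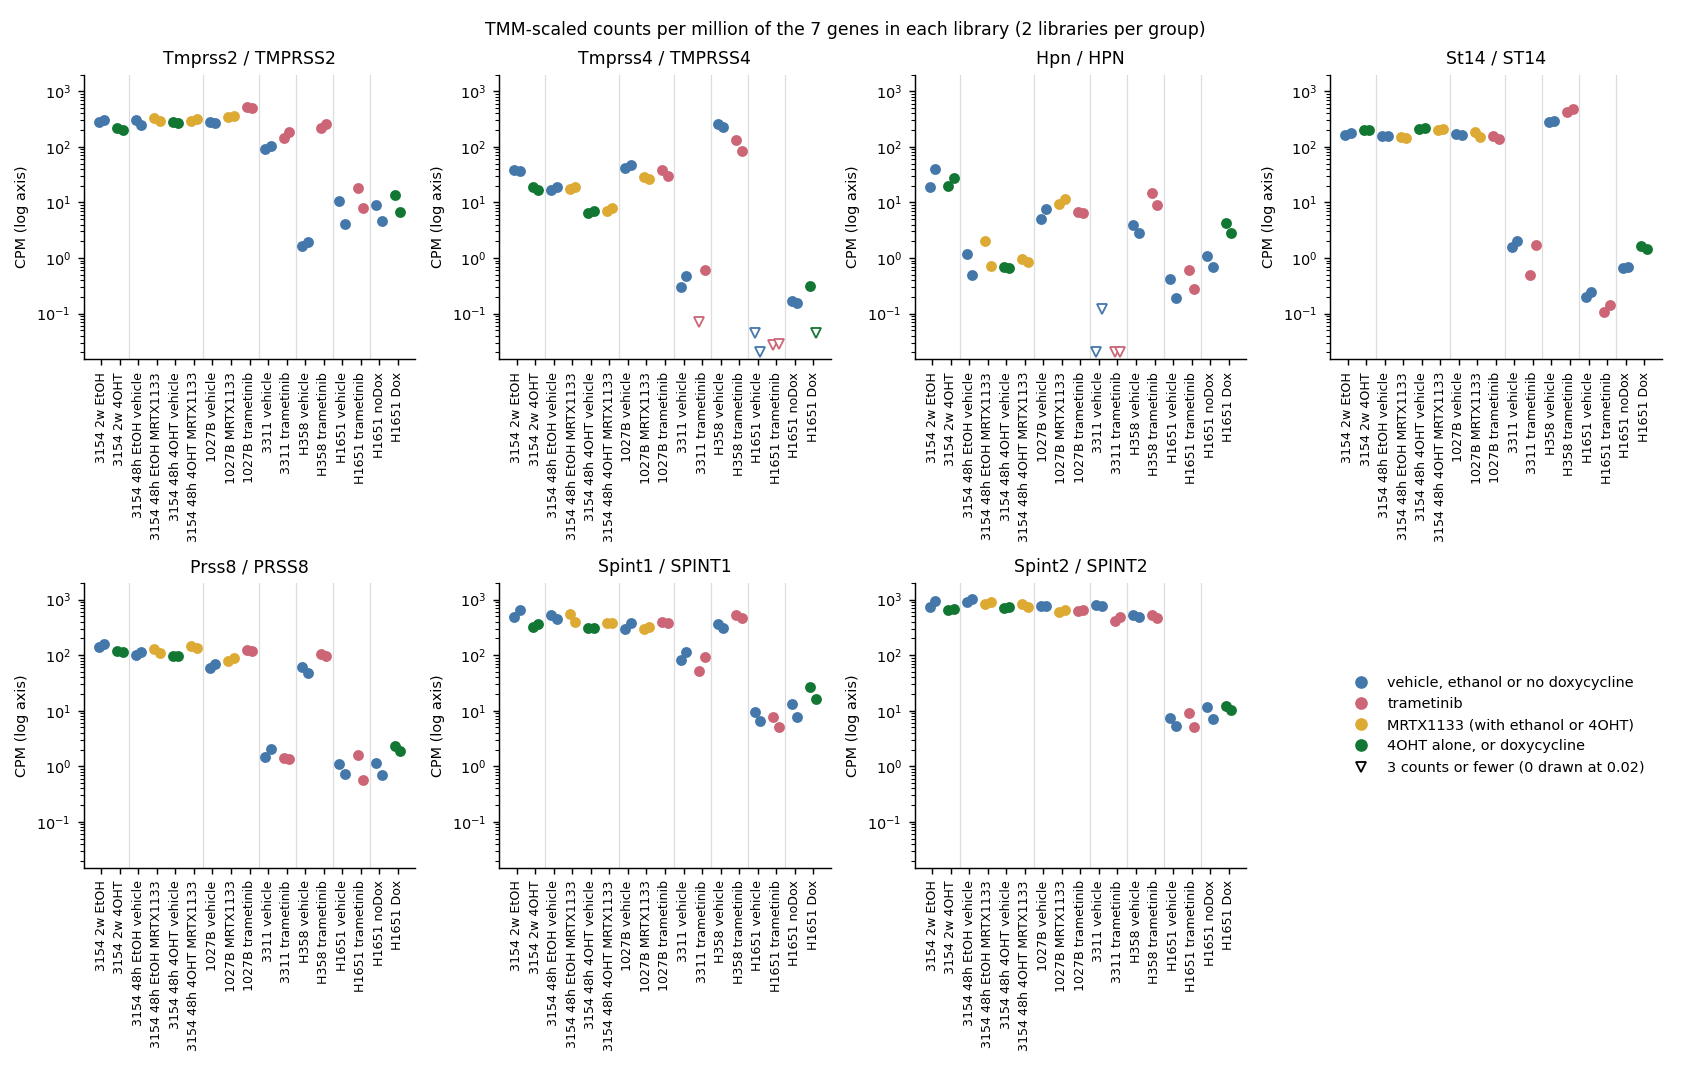
TMM-scaled CPM of each of the 7 genes (log axis) in every library, with 2 points per group and culture, and open triangles for 3 counts or fewer. H358 holds TMPRSS2 at 1.66 and 1.91 CPM in vehicle and at 222 and 255 CPM with trametinib, H1651 holds all members low, and 3311 holds Spint2 high with St14, Prss8, Tmprss4 and Hpn near the bottom.

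Across the 7 vehicle, ethanol or untreated groups, each scaled within its own table, the order of the cultures differed from gene to gene. Tmprss2 was highest in the 3154 and 1027B organoids, where the ethanol group of the 2-week table (mean 290.4 CPM), the 1027B vehicle group (275) and the 48-hour ethanol group (272) had overlapping libraries. It was lower in 3311 (98.0), lower again in H1651 (7.42 and 6.91 in its 2 tables, overlapping) and lowest in H358 (1.78). TMPRSS4 had the reverse extreme, with H358 highest at a mean of 244 CPM, 1027B at 44.4, 3154 at 37.5 and 17.9 in its 2 experiments, and 3311 and H1651 below 0.4. St14 was highest in H358 (289) and then alike in 3154 and 1027B (157 to 168), against 1.80 in 3311 and 0.673 or less in H1651. Hpn differed between the 2 experiments on 3154 organoids, with 18.7 and 40.3 CPM in ethanol in the 2-week table against 1.18 and 0.503 CPM in the 48-hour table. These levels come from tables that were scaled separately, and CPM takes no account of transcript length, which was not available for the human genes. The order between human and mouse cultures is therefore a description of counts only. Differences between cultures were not tested.

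RefSeq promoter windows of GRCm38.p6 were found for 4 of the 7 members: Tmprss2, Hpn (with 2 starts), Spint1 and Spint2. They are printed for Tmprss2, the protease with the largest change in any comparison, and for both inhibitors. Each is the 250 bases before the annotated start, with any motif match in capitals. That largest change was in the human line H358, whereas these windows are mouse. In the mouse cultures the largest log2 change of Tmprss2 was 0.887, with trametinib in 1027B. The protease with the largest mouse change was Tmprss4 (-1.44), for which no window was found. The windows lie at chr16:97611196-97611445 on the minus strand for Tmprss2, at chr2:119237110-119237359 on the plus strand for Spint1 and at chr7:29281978-29282227 on the minus strand for Spint2.
Tmprss2: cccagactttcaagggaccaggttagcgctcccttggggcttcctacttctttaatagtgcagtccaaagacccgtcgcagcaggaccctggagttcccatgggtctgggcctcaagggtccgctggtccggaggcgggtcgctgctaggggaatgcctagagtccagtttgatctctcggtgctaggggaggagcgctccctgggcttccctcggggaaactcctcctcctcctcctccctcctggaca
Spint1: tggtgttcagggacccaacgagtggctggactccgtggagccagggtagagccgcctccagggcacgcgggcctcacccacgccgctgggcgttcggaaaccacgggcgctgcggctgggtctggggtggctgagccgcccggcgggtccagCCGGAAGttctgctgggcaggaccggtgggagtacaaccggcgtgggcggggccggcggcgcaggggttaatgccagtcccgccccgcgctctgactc
Spint2: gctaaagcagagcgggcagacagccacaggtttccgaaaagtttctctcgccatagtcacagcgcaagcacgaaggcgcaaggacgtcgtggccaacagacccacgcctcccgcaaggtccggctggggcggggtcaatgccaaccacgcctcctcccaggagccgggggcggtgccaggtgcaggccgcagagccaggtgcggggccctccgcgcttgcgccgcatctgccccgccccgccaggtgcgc
Bases G and C made up 61.6% of the Tmprss2 window, 72.8% of the Spint1 window and 69.6% of the Spint2 window. Each was searched on both strands for an HNF4 motif (CAAAGTCCA, CAAAGTTCA or CAAAGGTCA), the AP-1 motif TGANTCA and the ETS motif CCGGAAG; no match overlapped another. The HNF4 letters were in 0 of the 5 member windows and in 1.14% of 32851 promoter windows of the same length. AP-1 letters were in 0 of 5 against 6.75%. The ETS letters were in 1 of 5 against 6.91%, in the Spint1 window starting 98 bases before the start. A match describes letters only, and its absence says only that these letters are not in these windows.

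Counted by comparison, the members called are set here beside the share of all tested genes that was called, and nothing is read from that, since the genes were picked with these changes known. Trametinib in H358 called 6 of 7 members (46.8% of all genes), 5 higher (23.5%) and 1 lower (23.2%). In 1027B trametinib called 2 of 7 (26.7%), both higher (13.5%), and 4 in a fit with the replicate number as a block (44.9%). MRTX1133 in 1027B called 1 (6.27%), lower (3.26%), and 5 with the block (24.1%). In 3311 trametinib called 2 of 6 tested members (39.0%), 1 higher (19.4%) and 1 lower (19.6%). In H1651 trametinib called 0 of 5 (0%, with 597 genes at an unadjusted p under 0.05 in edgeR and 47 called by DESeq2). With the replicate block 1881 of 18277 genes were called there, TMPRSS2 among them. DUSP6, SPRY4 and ETV4 were called lower with trametinib in 1027B, 3311 and H358. In H1651 they were lower without overlap (log2 change -3, -2.46 and -2.22) but not called. Hnf4a deletion called 2 members at 2 weeks (9.81%), both lower (5.78%). At 48 hours it called 4 with vehicle (31.0%), 1 higher (15.3%) and 3 lower (15.7%), and 2 with MRTX1133 (27.7%), 1 higher (13.2%) and 1 lower (14.5%). Doxycycline called 1 of 6 (1.42%), higher (1.04%). MRTX1133 in 3154 called 0 of 7 with Hnf4a (0.349%) and 0 of 7 after deletion (4.64%). Median log2 changes of the tested members were 0.63 in H358 against 0.015 over all genes, -0.37 against 0.018 on deletion at 2 weeks, -0.31 against 0.010 at 48 hours with vehicle and 1.11 against -0.0037 with doxycycline. They were -0.39 against 0.0081 in 3311 and 0.052 against -0.012 with trametinib in 1027B. On deletion with MRTX1133 they were -0.15 against -0.0051. With MRTX1133 they were 0.00215 against 0.0064 in 1027B, 0.033 against 0.0025 in 3154 with Hnf4a and 0.155 against -0.00265 after deletion. With trametinib in H1651 they were 0.256 against -0.0027. The drug comparisons in 1027B share their vehicle libraries, as the deletion and drug comparisons in the 48-hour experiment share theirs.

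TMPRSS2 was called higher with trametinib in 3 of the 4 cultures that received it. In those the size ranged from under 2-fold in the mouse cultures to 134-fold in H358. The H358 vehicle libraries held 64 and 64 counts of TMPRSS2, or 1.66 and 1.91 CPM, and the trametinib libraries held 10330 and 6499 counts, or 222 and 255 CPM. The groups were far apart, and the log2 change was 7.06 ± 0.159 (SE, n = 2 against 2). In 1027B organoids trametinib took Tmprss2 from 284 and 266 CPM to 516 and 499 CPM (log2 change 0.89 ± 0.0976). With MRTX1133 the libraries stood at 344 and 359.9 CPM, between the other groups with no overlap (log2 change against vehicle 0.36 ± 0.097, not called in edgeR without the replicate block but called with it and by DESeq2). In 3311 the libraries went from 93.2 and 103 CPM to 144 and 183 CPM with trametinib (0.74 ± 0.161). That call was lost without trametinib replicate 2 (0.55) or vehicle replicate 1 (0.66). H1651 held 10.7 and 4.11 CPM in vehicle and 18.4 and 7.94 CPM with trametinib. Replicate 1 was above replicate 2 in both groups, which overlapped, and each trametinib library was above the vehicle library of the same number. Numbers were not taken as pairs here, and the change was not called (0.82 ± 0.579), but it was called with the replicate block. It ran from 0.090 without trametinib replicate 1 to 1.68 without vehicle replicate 1, where it was called. Hnf4a deletion left Tmprss2 at 220.2 and 204 CPM against 282 and 299 CPM after 2 weeks. The libraries were separate, and the change was not called in edgeR without the replicate block but called with it and by DESeq2 (-0.45 ± 0.119). In the 48-hour experiment ethanol gave 300.5 and 244 CPM and 4OHT 277 and 270.2 CPM, with overlap. Both MRTX1133 groups there lay between 289 and 324 CPM.

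In H358 other marker genes moved beside TMPRSS2. The 7 fibroblast markers, all listed and 6 of them tested, summed to 41.2 to 50.0 CPM in vehicle and 246 to 348 CPM with trametinib, with 4 called higher and none at 0 in every library; LUM alone ran from 7.76 to 200.4 CPM. The 5 epithelial markers summed to 5337 to 5534 CPM in vehicle and 3601 to 3882 CPM with trametinib, with 1 called higher and 3 lower. The lung lineage markers, 3 of 4 listed and 2 tested, summed to 119 to 133.5 CPM in vehicle and 174 to 178 CPM with trametinib, both called higher, with SFTPB at 0 in every library. The 3 endothelial markers summed to 11.6 to 14.2 and 20.8 to 21.0 CPM (1 called higher), and the 4 leukocyte markers to 1.28 to 1.61 and 1.53 to 1.98 CPM (3 tested, 1 called higher). Their part in the H358 results was not tested.

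Markers also moved in the mouse cultures. In 1027B the 4 lung lineage markers (Nkx2-1, Sftpb, Sftpc and Napsa) summed to 6297 to 10290 CPM in vehicle, 2201 to 2749 CPM with trametinib (2 called higher, 1 lower) and 3021 to 4616 CPM with MRTX1133 (1 called higher). The epithelial markers there summed to 9027 to 9170 CPM in vehicle and 7418 to 8260 CPM with trametinib (1 called in each direction), and the leukocyte markers to 7.85 to 8.28 and 6.62 to 7.26 CPM (3 tested, 1 called in each direction). With MRTX1133 the epithelial markers summed to 7992 to 8126 CPM and the leukocyte markers to 5.433 to 5.535 CPM, both below vehicle, with none called. In 3311 the lung lineage markers summed to 4463 to 5115 CPM in vehicle and 461.6 to 563.5 CPM with trametinib (2 tested, 1 called lower). The 3311 leukocyte markers, 3 of 4 listed, summed to 9.55 to 15.7 CPM in vehicle and 21.8 to 28.6 CPM with trametinib, and the fibroblast markers, 5 of 7 listed, to 21.5 to 26.3 and 17.3 to 17.5 CPM; each list had 1 called in each direction, and Ptprc and Col1a2 were at 0 in all 3311 libraries. The 3311 epithelial markers summed to 7535 to 9686 and 6158 to 7907 CPM (1 called lower). On deletion at 48 hours the lung lineage markers summed to 6350 to 8624 CPM after ethanol and 7569 to 8727 CPM after 4OHT with vehicle (2 called higher), and to 10600 to 13470 and 12250 to 16540 CPM with MRTX1133 (1 called higher). The part of these markers in the members' changes was not tested.

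**Figure D2:**
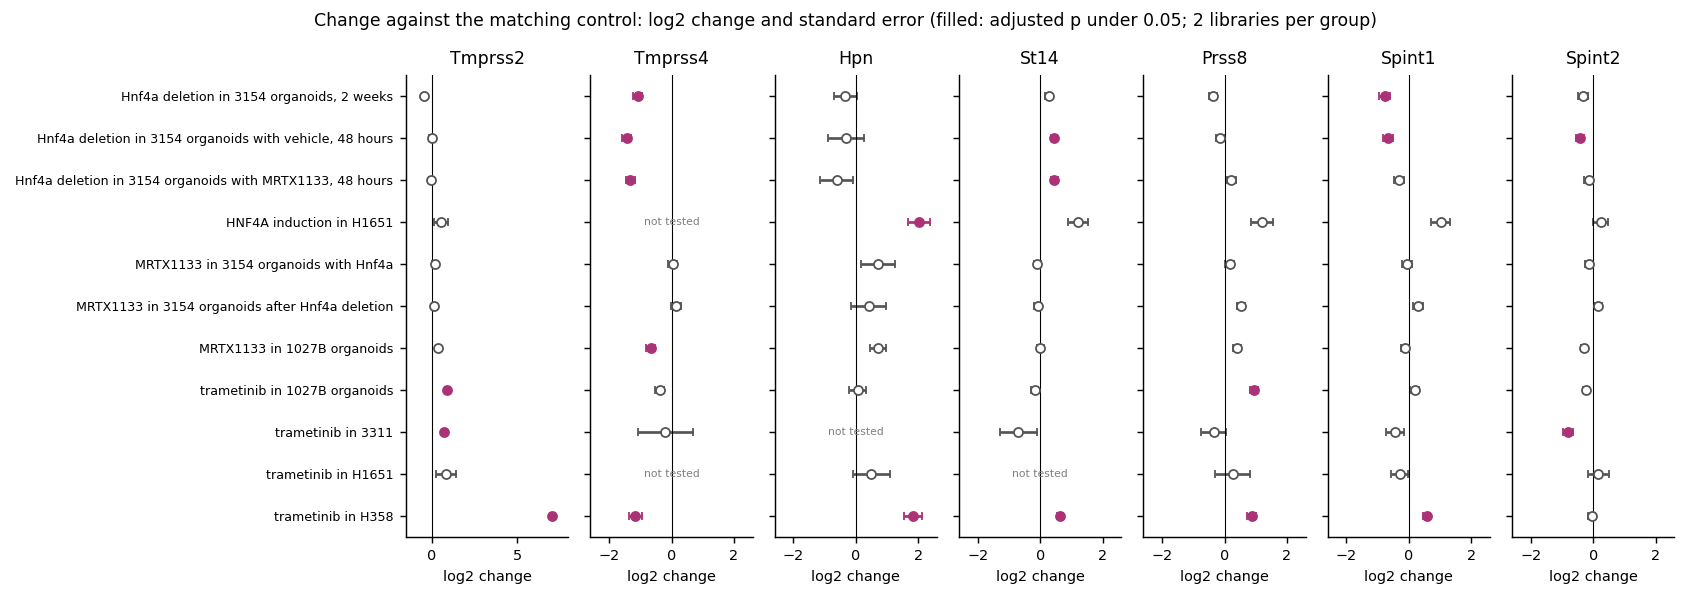
Log2 change of each member against its matching control in the 11 comparisons with vehicle, ethanol or no doxycycline, with standard errors (n = 2 against 2); filled points were called and the Tmprss2 panel has a wider axis. TMPRSS2 in H358 stands at 7.06, Tmprss4 is below 0 in all 3 deletion comparisons, and St14 and Spint1 lie on opposite sides of 0 in those comparisons.

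Tmprss4 was the member with the largest falls. Its protease is often raised in carcinomas. In 3154 organoids it stood at 38.0 and 37.0 CPM 2 weeks after ethanol and at 18.7 and 16.5 CPM after 4OHT (log2 change -1.09 ± 0.155). In the 48-hour experiment the ethanol libraries held 17.0 and 18.8 CPM with vehicle and 17.4 and 19.3 CPM with MRTX1133. The 4OHT libraries held 6.33 and 6.88 CPM with vehicle and 6.86 and 7.81 CPM with MRTX1133. Deletion therefore separated the libraries fully with and without the inhibitor (-1.44 ± 0.155 and -1.32 ± 0.153), while the inhibitor groups overlapped their vehicle groups. The 2-week call was lost without 4OHT replicate 1 (-1.18) or 4OHT replicate 2 (-1.0). In H358 TMPRSS4 fell from 262 and 226 CPM to 133 and 84.4 CPM with trametinib (-1.16 ± 0.198), the direction opposite to TMPRSS2 in the same libraries. The 1027B organoids went from 41.9 and 46.9 CPM to 29.2 and 26.6 CPM with MRTX1133 (-0.67 ± 0.147, called) and to 37.7 and 30.3 CPM with trametinib (-0.39 ± 0.146, called with the replicate block only). The MRTX1133 call was lost without any 1 of the 4 libraries compared, with a log2 change of -0.57 without vehicle replicate 2 at one end and of -0.75 without replicate 1 of vehicle at the other, and also when the trametinib group was left out of the fit (-0.67). Tmprss4 shares 15.9% of its exon bases with Gm17099 on the opposite strand, and the sources used here do not say whether counting used strand. The 3311 libraries held 2 to 16 counts. H1651 held 8 counts or fewer, and TMPRSS4 was not tested there.

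St14, the matriptase gene, was higher after Hnf4a deletion. In the 48-hour experiment it rose from 159.6 and 154 CPM to 209 and 216 CPM with vehicle (log2 change 0.44 ± 0.108) and from 148 and 147 CPM to 198 and 206 CPM with MRTX1133 (0.45 ± 0.108). All 4 libraries with 4OHT were above all 4 with ethanol. Both calls were lost without either of the 4OHT libraries compared, with values that ran from 0.41 to 0.46 with vehicle and from 0.42 to 0.48 with MRTX1133. The call with MRTX1133 was also lost without replicate 1 (0.47) or 2 (0.44) of ethanol with MRTX1133, and the call with vehicle when only the groups compared were fitted (0.43). After 2 weeks the libraries did not overlap either, at 161 and 175 CPM against 204 and 201 CPM, and the change was not called (0.27 ± 0.117). Trametinib raised ST14 in H358 from 282 and 295 CPM to 418 and 475 CPM (0.63 ± 0.107). In 1027B all 6 libraries lay between 141 and 182 CPM. In 3311 St14 had 14 to 51 counts per library, and in H1651 with trametinib or vehicle 4 to 9 counts, where it was not tested.

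Prss8, which encodes prostasin, rose with trametinib in 1027B and H358. The 1027B libraries went from 58.9 and 68.8 CPM in vehicle to 126 and 120.5 CPM with trametinib (log2 change 0.95 ± 0.120). MRTX1133 gave 78.7 and 89.8 CPM there, above vehicle and below trametinib with no overlap (0.40 ± 0.120, called with the replicate block only). In H358 PRSS8 went from 61.8 and 47.4 CPM to 103 and 96.8 CPM (0.87 ± 0.139). In the 48-hour 3154 experiment the highest libraries were those with both 4OHT and MRTX1133, at 143 and 134 CPM, against 96.6 and 96.9 CPM with 4OHT alone (0.52 ± 0.135, not called in edgeR, but called by DESeq2 and when only the groups compared were fitted). Ethanol gave 99.1 and 113 CPM with vehicle and 129 and 109 CPM with MRTX1133, with overlap. At 2 weeks Prss8 was at 138 and 161 CPM after ethanol and 117 and 114 CPM after 4OHT (-0.37 ± 0.130, called with the replicate block only). The 3311 libraries held 35 to 51 counts. Kat8 lies opposite 6.59% of the exon bases of Prss8.

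Hpn, the hepsin gene, rose with doxycycline in H1651 and with trametinib in H358, and was near the floor in 3311. Doxycycline took HPN in H1651 from 1.07 and 0.687 CPM to 4.28 and 2.83 CPM (log2 change 2.02 ± 0.347), that is, from 26 and 18 counts to 109 and 64 counts. This call was lost without doxycycline replicate 1 (1.69), without untreated replicate 2 (1.73) and with a filter of 10 counts in every library (2.02). Trametinib took HPN in H358 from 3.94 and 2.87 CPM to 14.9 and 9.11 CPM (1.83 ± 0.275). In 1027B the MRTX1133 libraries, at 9.18 and 11.4 CPM, were above vehicle at 4.99 and 7.69 CPM (0.70 ± 0.255, called with the replicate block only, with 0.42 without vehicle replicate 1 and 1.06 without vehicle replicate 2). Trametinib gave 6.63 and 6.48 CPM, inside the vehicle range. At 2 weeks the 3154 groups overlapped, at 18.7 and 40.3 CPM after ethanol and 19.7 and 26.9 CPM after 4OHT (-0.34, not called; it was called at -0.80 without ethanol replicate 1 and turned to 0.32, not called, without ethanol replicate 2). In the 48-hour experiment 12 to 53 counts per library left the deletion changes uncertain in sign: -0.31 with vehicle became 0.42 without ethanol replicate 1, and -0.62 with MRTX1133 became 0.32 without replicate 1 of ethanol with MRTX1133. Neither was called. In 3311 there were 0 to 3 counts, at or under the floor, and no fold is given.

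Spint1, the gene for HAI-1, moved against St14 after Hnf4a deletion. It fell from 534 and 447 CPM to 307 and 309 CPM in the 48-hour experiment with vehicle (log2 change -0.67 ± 0.167). At 2 weeks it fell from 494 and 656 CPM to 316 and 356 CPM (-0.77 ± 0.174). Beside the 2-week changes, the 4 leukocyte markers summed to 18.6 to 44.7 CPM after ethanol and 10.1 to 13.5 CPM after 4OHT (2 tested, 1 called lower). The endothelial markers, 2 of 3 listed and 1 tested, summed to 5.08 to 5.93 CPM and 2.17 to 2.51 CPM (1 called lower). No listed marker was at 0 in all libraries, and their part in the 2-week changes was not tested. With MRTX1133 the 48-hour libraries stood at 543 and 397 CPM after ethanol and 371 and 383 CPM after 4OHT (-0.32 ± 0.166, not called). Without replicate 1 of ethanol with MRTX1133 this change was -0.066, and without replicate 2 it was -0.53, neither called. The libraries were separate in all 3 comparisons, though the MRTX1133 pair only narrowly. The 48-hour call was lost without 4OHT replicate 1 (-0.67), 4OHT replicate 2 (-0.68) or ethanol replicate 1 (-0.54). The 2-week call was lost without 4OHT replicate 1 (-0.69), 4OHT replicate 2 (-0.86) or ethanol replicate 2 (-0.55), with RLE scaling (-0.78) and with the filter of 10 counts in every library (-0.76). Trametinib raised SPINT1 in H358 from 358.2 and 311 CPM to 530.5 and 464 CPM (0.57 ± 0.119). In 3311 the libraries overlapped, at 81.6 and 116 CPM in vehicle and 51.9 and 94.2 CPM with trametinib (-0.44 ± 0.292, not called without the replicate block but called with it). The change was called at -0.94 without trametinib replicate 2 and stood at -0.072 without trametinib replicate 1 and -0.16 without vehicle replicate 2. In 1027B the vehicle libraries, at 293 and 379 CPM, overlapped those of both inhibitors.

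Spint2, the gene for HAI-2, was the most even member among the mouse cultures, with 406 to 1032 CPM in every mouse library. In the 48-hour experiment with vehicle it fell from 889 and 1032 CPM to 694 and 727 CPM on deletion (log2 change -0.43 ± 0.129). That call was lost without 4OHT replicate 1 (-0.41), 4OHT replicate 2 (-0.47) or ethanol replicate 2 (-0.33), and when only the groups compared were fitted (-0.44). The other deletion comparisons were not called: 738 and 923 CPM after ethanol against 655.5 and 667.6 CPM after 4OHT at 2 weeks (-0.33 ± 0.149), and 841.5 and 914 against 841 and 741 CPM at 48 hours with MRTX1133 (-0.15 ± 0.129). In 3311 it fell from 806 and 772 CPM to 406 and 489.9 CPM with trametinib (-0.82 ± 0.164). The 1027B libraries went from 750.5 and 771 CPM to 633 and 662 CPM with trametinib (-0.23 ± 0.102) and 606 and 636 CPM with MRTX1133 (-0.29 ± 0.102), both without overlap and called with the replicate block only. In H358 the groups overlapped, at 537 and 487 CPM against 531 and 461 CPM (-0.045 ± 0.114), in the one comparison where the other 6 members were all called.

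Counts of Spint1 per count of St14 put the inhibitor beside its protease within a library, where no scaling enters; this ratio was chosen after the values were seen and has no test. It was 3.07 and 3.75 after ethanol and 1.55 and 1.77 after 4OHT at 2 weeks. In the 48-hour experiment it was 3.35 and 2.89 in ethanol with vehicle, 3.66 and 2.71 in ethanol with MRTX1133, 1.47 and 1.43 in 4OHT with vehicle and 1.88 and 1.86 in 4OHT with MRTX1133. All 6 libraries with 4OHT were below all 6 with ethanol. The 1027B organoids had 1.70 and 2.35 in vehicle, 1.63 and 2.09 with MRTX1133 and 2.55 and 2.64 with trametinib. H358 had 1.27 and 1.05 in vehicle and 1.27 and 0.976 with trametinib, so the ratio overlapped although both genes rose there.

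**Figure D3:**
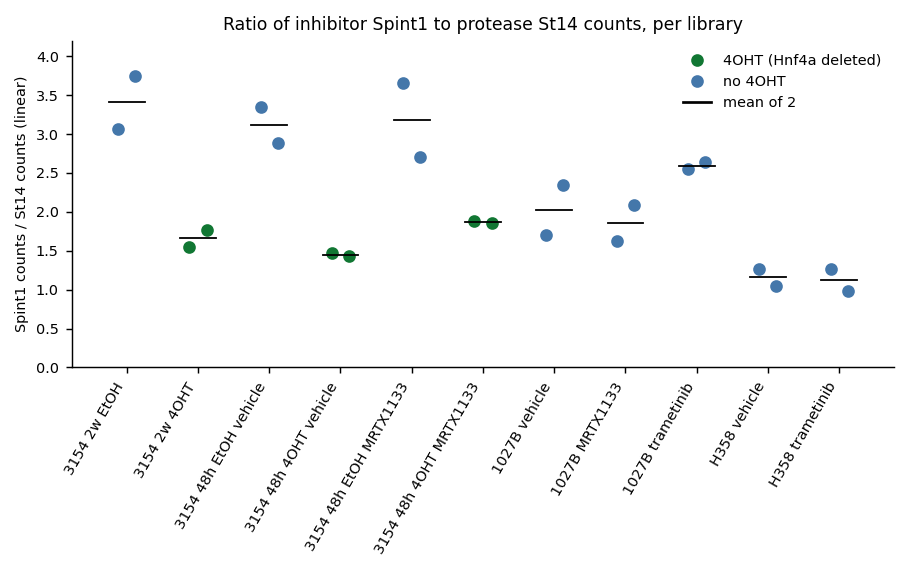
Spint1 counts divided by St14 counts in each library (linear axis from 0), with bars at the mean of 2 libraries, for the cultures with high counts of both genes. The 3154 libraries with 4OHT lie between 1.43 and 1.88 and those with ethanol between 2.71 and 3.75.

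Doxycycline in H1651 put 4 members above the untreated libraries without overlap, HPN, ST14, PRSS8 and SPINT1, as it did 21.4% of all tested genes. ST14 went from 0.660 and 0.687 CPM to 1.65 and 1.46 CPM, PRSS8 from 1.15 and 0.687 CPM to 2.32 and 1.90 CPM, and SPINT1 from 13.4 and 7.67 CPM to 26.2 and 16.3 CPM. Their log2 changes of 1.20 ± 0.326, 1.20 ± 0.345 and 1.02 ± 0.300 were not called, though SPINT1 was called without doxycycline replicate 2 (1.32) or untreated replicate 1 (1.47) and stood at 0.64 without doxycycline replicate 1 and 0.68 without untreated replicate 2. With the replicate block, though numbers were not taken as pairs here, ST14, PRSS8, SPINT1 and TMPRSS2 were also called, among 3048 of 17351 genes. TMPRSS2 and SPINT2 overlapped between the groups, and TMPRSS4 had 1 to 8 counts and was not tested. Beside these, the 5 epithelial markers summed to 4420 to 4422 CPM without and 5716 to 6204 CPM with doxycycline (2 called higher), and the 7 fibroblast markers to 663 to 757 CPM without and 413 to 455 CPM with it (6 tested, 1 called lower). No marker of either list was at 0 in all libraries, and their part in the result was not tested.

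Set directly against each other in 1027B, 20 nM MRTX1133 and 10 nM trametinib gave no called member in edgeR, and no called gene among 14555, with 2357 genes and 3 members at an unadjusted p under 0.05 and 712 genes called by DESeq2. This contrast was not used to pick the genes but rests on libraries that were, and the doses differ. Tmprss2 was lower with MRTX1133 by a log2 difference of -0.53 (95% interval -0.76 to -0.30, edgeR adjusted p 0.107), and no library overlapped. Replicate numbers were taken as pairs in 1027B, though the labels do not state pairs. With the replicate block the same difference was called (edgeR adjusted p 0.00306), as it was by DESeq2. For Prss8 the difference was -0.55 (-0.83 to -0.27, edgeR adjusted p 0.127, and 0.00676 with the block, also called by DESeq2). These were the 2 members called with the block, among 14.1% of all genes. Hpn went the other way, 0.65 higher with MRTX1133 (0.042 to 1.25, edgeR adjusted p 0.283, and 0.0724 with the block). For Spint2 the difference was -0.060 (-0.30 to 0.18, edgeR adjusted p 0.829), an interval that leaves room for a change of either sign. Spint1 (-0.31), Tmprss4 (-0.29) and St14 (0.18) had edgeR adjusted p values of 0.337, 0.393 and 0.508.

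**Figure D4:**
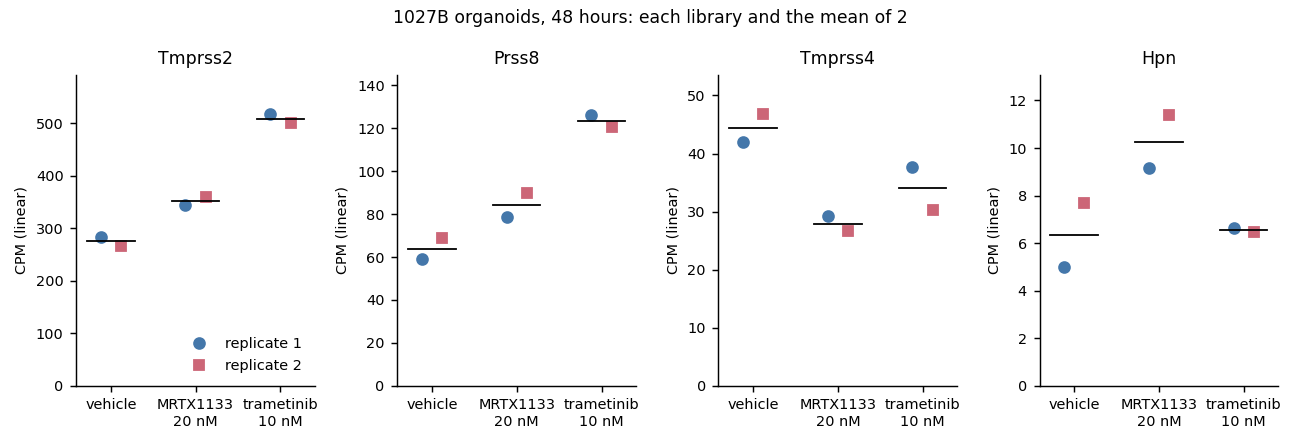
CPM (linear axes from 0) of Tmprss2, Prss8, Tmprss4 and Hpn in each 1027B library, by replicate, with bars at the mean of 2. Tmprss2 and Prss8 climb from vehicle through 20 nM MRTX1133 to 10 nM trametinib without overlap, Tmprss4 is lowest with MRTX1133, and Hpn is highest with MRTX1133.

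Whether the MRTX1133 response of 3154 organoids depended on Hnf4a was tested as an interaction. This is the difference between comparisons with vehicle that were known when the genes were picked, so its p-values are not independent of that choice. No member passed in edgeR, and no gene among 15458, with 1150 genes and 0 members at an unadjusted p under 0.05 and 36 genes and 0 members called by DESeq2. The largest member values were 0.36 for Prss8 (95% interval -0.082 to 0.80, edgeR adjusted p 0.777) and 0.35 for Spint1 (edgeR adjusted p 0.846). For St14 the interaction was 0.014 (-0.34 to 0.37), for Tmprss4 0.12 (-0.38 to 0.62) and for Tmprss2 -0.019 (-0.47 to 0.43), intervals that include 0 and changes of either sign. With MRTX1133 in organoids with Hnf4a, the log2 changes of Dusp6 (-0.0865), Spry4 (-0.405) and Etv4 (-0.383) were not called. After deletion Spry4 (-1.52) and Etv4 (-1) were called lower, and Dusp6 (-0.598) was not called. The part of these differences in the members' result was not tested.

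Related genes were taken from 3 lists written with earlier results known: other type II transmembrane serine proteases, other Kunitz and serpin inhibitors, and substrates and partners of the members. Among the other membrane proteases, 3 of 5 tested were called on deletion at 48 hours with vehicle (31.0% of all genes), 2 higher and 1 lower. Tmprss11b went from 0.063 ± 0.0296 to 0.702 ± 0.0809 CPM (SD, n = 2) and Tmprss11e from 0.231 ± 0.0293 to 1.82 ± 0.326 CPM, while Tmprss13 fell from 3.55 ± 0.333 to 0.692 ± 0.0943 CPM. At 2 weeks 2 of 5 were called (9.81% of all genes), both higher, and again they were Tmprss11e (1.76 ± 0.247 to 17.4 ± 13.6 CPM) and Tmprss11b (0.485 ± 0.267 to 3.00 ± 1.32 CPM). In H358 the 1 called of 5 (46.8% of all genes) was TMPRSS13, from 13.4 ± 0.141 to 34.7 ± 1.23 CPM. The median log2 change of this list had no common sign. It was 0.68 on deletion at 48 hours with vehicle, -0.30 on deletion with MRTX1133, 0.055 at 2 weeks and 0.44 in H358. In 1027B Tmprss11e was the 1 called of 2 tested with each drug, and it fell from 1.72 ± 1.06 CPM in vehicle to 0.182 ± 0.00600 CPM with trametinib (26.7% of all genes called) and 0.223 ± 0.104 CPM with MRTX1133 (6.27%). Over the 2 genes tested in each, the list's median was -3.06 with trametinib and -2.93 with MRTX1133 in 1027B and -1.27 in 3311.

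Among the other inhibitors, 8 of 11 tested were called with trametinib in H358 (46.8% of all genes), 3 higher and 5 lower, and 4 of 6 in 1027B (26.7% of all genes), 2 in each direction. In 1027B trametinib lowered Serpine2, the protease nexin-1 gene, from 3.24 ± 0.286 to 1.16 ± 0.135 CPM and Serpinb5, the maspin gene, from 56.4 ± 14.8 to 29.2 ± 0.425 CPM. It raised App, the gene of a precursor protein with a Kunitz domain in some isoforms, from 819 ± 9.90 to 1371 ± 6.10 CPM, and the other gene called higher was Aplp2 (log2 change 0.44), named after its value was seen. In H1651 SERPINA1, the alpha-1-antitrypsin gene, was the 1 called of 11 (1.42% of all genes), at 0.0763 ± 0.108 CPM without and 3.80 ± 0.312 CPM with doxycycline. Of the substrates and partners, 12 of 13 tested were called in H358 (46.8% of all genes), 6 in each direction. In 1027B trametinib called 7 of 13 (26.7% of all genes), 4 higher and 3 lower, and in 3311 8 of 13 (39.0% of all genes), 5 higher and 3 lower. Scnn1b, a subunit of the epithelial sodium channel that prostasin activates, rose from 0.302 ± 0.121 to 42.6 ± 10.2 CPM with trametinib in 1027B and from 1.01 ± 0.239 to 17.6 ± 1.45 CPM on deletion at 48 hours with vehicle. At 2 weeks it stood at 15.3 ± 0.859 CPM after ethanol and 18.8 ± 0.809 CPM after 4OHT, a change that was not called (log2 change 0.30). Hgfac, the hepatocyte growth factor activator gene, fell from 24.5 ± 3.22 to 4.34 ± 0.775 CPM on deletion at 48 hours with vehicle and from 39.4 ± 11.97 to 15.5 ± 2.10 CPM at 2 weeks. Medians of the other inhibitors were -0.38 in H358 and -0.60 with trametinib in 1027B, and those of the substrates 0.35 and -0.0043, against 0.015 and -0.012 over all genes.

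Likeness was measured as Pearson's r of log2 CPM over the 22 mouse libraries, centred on each table, among 12598 genes; libraries of 1 table share culture and treatments, so r is a description with no p. Nearest to Tmprss2 were Nudt4 (0.933), Cpt1a (0.929) and Limk2 (0.922). Tmprss4 was nearest to Trim15 (0.917), Eps8l3 (0.896) and Misp (0.889), and St14 to Msln (0.875), Nt5e (0.815) and Fam83g (0.801). Prss8 had Acaa1b (0.887), Emc9 (0.882) and Gpt (0.870). Spint1 had Fam13a (0.908), Entpd2 (0.908) and Pak1 (0.902), and Spint2 had Ubxn1 (0.943), BC016579 (0.937) and Ppdpf (0.936). Among the members themselves Spint1 and Tmprss4 were the closest pair (0.812), followed by Spint1 with Spint2 (0.654) and Tmprss4 with Spint2 (0.642). Tmprss2 with Prss8 gave 0.533, and Tmprss2 with Spint2 gave -0.439, the lowest of the 15 pairs. Hpn did not pass the count filter in 3311 and has no r.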

How the data were processed

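RNA was measured by poly(A) RNA sequencing with a directional kit and paired ends, per the labels. The authors deposited raw read counts per Ensembl gene in 7 tables, and the submitters' processing notes name cutadapt 3.5, STAR 2.7.6a and featureCounts 1.6.3. The notes name mm10, mm39 and hg38 without a role; the annotation, filters and strand setting are not given in the sources used here. The tables list 16553 to 26245 genes. The 3311 columns give treatment and replicate but no line, and were mapped to 3311 because all other libraries are named in full elsewhere. The members and lists were chosen with earlier results of these data known.

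Each table was fitted with all its groups in R 4.3.3 with edgeR 4.0.16 (filterByExpr, TMM, quasi-likelihood F-test, Benjamini-Hochberg over all genes tested). Standard errors were derived from F, and 95% intervals used its degrees of freedom. The biological coefficient of variation ran from 0.0949 to 0.193. With 2 libraries a group, an exact two-sided permutation test cannot go below 0.333. Alternatives were DESeq2 1.42.0, RLE factors, other count filters, only the groups compared, the replicate block and leaving out each library. The named genes are the 7 members, Hnf4a, up to 3 called genes of each list and comparison with the largest change, and the 3 genes most like each member. Dusp6, Spry4, Etv4, single marker genes and Aplp2 were named after their values were seen. An allele that the mouse cultures share, and a gene of one list, are not reported here. Replicates numbered alike in 1027B deviated together (r 0.243, 0.372 and 0.414 over the 3 pairs of groups), so those numbers were taken as pairs. The labels state no pairs. Numbers were not taken as pairs in the other tables, although r was 0.427 at 2 weeks and 0.623 for trametinib in H1651. No replicates were identical (chi-square per degree of freedom 5.65 to 83.1). Tested on simulated counts of each table with 200 genes changed 3-fold, the fits recovered 67% to 86% of them, and 4.79% to 13% of calls were false. A floor of 3 counts, which covers counting error only, marks values read as not detected. Motifs were searched in RefSeq windows, and exon lengths came from GENCODE M21.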

Additional observations from a re-analysis of the deposited data

Results flagged for a closer look

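Prss8 libraries lay on opposite sides of vehicle with trametinib in the mouse cultures, and the 3311 change was not called. Both 3311 libraries with trametinib were below both vehicle libraries and both 1027B libraries were above theirs. The log2 ratio of mean CPM was -0.35 in 3311 and 0.95 in 1027B, a difference of -1.3. The 3311 libraries held only 35 to 51 counts of Prss8, the doses were 50 nM and 10 nM, and the difference was not tested. Without vehicle replicate 2 the 3311 change was -0.088, and without vehicle replicate 1 it was -0.58.

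ST14 libraries lay on opposite sides of vehicle with trametinib in the human lines, though ST14 was too low in H1651 to be tested. The log2 ratio of mean CPM was 0.63 in H358 and -0.84 in H1651, a difference of 1.47, with libraries apart in both lines. H1651 held 8 and 9 counts in vehicle and 4 and 5 with trametinib, and the difference was not tested.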

How the results depend on the processing

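Of 87 log2 changes of members tested, 20 were called. None of these 20 changed sign under any alternative, 11 stayed called under every one and 9 were lost under at least 1, while 19 uncalled changes were called under at least 1. The number of members called changed with DESeq2 from 1 to 2 for MRTX1133 in 1027B, from 0 to 2 for MRTX1133 against trametinib and from 0 to 1 for MRTX1133 after deletion, and went from 2 to 3 at 2 weeks by adding Tmprss2. Fitting only the groups compared gave 0 for MRTX1133 in 1027B (from 1), 2 for deletion at 48 hours with vehicle (from 4) and 2 for MRTX1133 after deletion (from 0). At 2 weeks RLE scaling and the filter of 10 counts in every library each gave 1 in place of 2, and that filter gave 0 in place of 1 for doxycycline. With the replicate block 4 members were called for trametinib in 1027B, 5 for MRTX1133 in 1027B and 2 between the drugs. The other tables were not taken as paired (correlations 0.427 at 2 weeks, -0.251 to 0.549 over 6 pairs at 48 hours, 0.126 in 3311, 0.318 in H358 and with doxycycline, 0.623 for trametinib in H1651). There the block gave 4 at 2 weeks (adding Tmprss2 and Prss8, among 4563 genes called of 14492) and 3 in 3311 (adding Spint1, among 6356 of 15224). It gave 5 with doxycycline (adding ST14, PRSS8, SPINT1 and TMPRSS2, among 3048 of 17351) and 1 for trametinib in H1651 (TMPRSS2, among 1881 of 18277). No other member count changed in these tables.

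Leaving out 1 library in turn, with the lone library assumed to vary like the other groups, gave 0 to 3 members at 2 weeks, 1 to 3 at 48 hours with vehicle, 1 with MRTX1133, 0 to 2 with doxycycline, 0 for MRTX1133 in 1027B, 1 to 2 in 3311, 0 to 1 for trametinib in H1651, 6 in H358 and 2 for trametinib in 1027B. It gave 0 for the interaction, between the drugs and for MRTX1133 in 3154.

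Counts over all genes moved over 1.5 times with DESeq2 at 2 weeks (1421 to 2311), with doxycycline (247 to 451), for MRTX1133 in 1027B (913 to 1636), in 3154 with Hnf4a (54 to 330) and after deletion (717 to 1342), and in H1651 with trametinib (0 to 47, and 2 with no filter), and from 0 to 36 for the interaction and 712 between the drugs. With only the groups compared they moved from 4795 to 3154 on deletion with vehicle, from 717 to 3932 for MRTX1133 after deletion, from 54 to 0 before it and from 0 to 1 between the drugs. With the replicate block they were 6540 for trametinib in 1027B (from 3880), 3515 for MRTX1133 there (from 913), 2050 between the drugs, 4563 at 2 weeks, 3048 with doxycycline and 1881 in H1651 with trametinib. Leaving out 1 library in turn gave 1336 to 2754 genes for trametinib and 138 to 349 for MRTX1133 in 1027B, 395 to 2790 at 2 weeks, 1668 to 5964 at 48 hours with vehicle and 1745 to 2805 with MRTX1133, 0 to 309 for MRTX1133 with Hnf4a and 0 to 23 after deletion, 3772 to 6298 in 3311, 232 to 412 with doxycycline, 0 to 193 for trametinib in H1651 and 6682 to 9265 in H358, so the shares of all genes called move with single libraries. The causes were not tested.

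With 2 libraries a group, an uncalled change is not shown to be absent. In H1651 and 3311 St14, Prss8, Tmprss4 and Hpn had at most 109 counts per library, and small changes were not detectable at this depth.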
